A study of Mus musculus with 10 samples.

Results

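The genes described here encode collagens, laminins and integrins, the fibrous and sheet-forming proteins outside the cell and the receptors by which a cell holds on to them. They were taken by symbol, as Col followed by digits, a and digits, or Lama, Lamb, Lamc, Itga or Itgb followed by a digit, together with Itgav. Of 21853 protein-coding genes listed, 77 met the rule, of which 44 were collagens, 11 laminins and 22 integrins. With a floor of 1 TPM (a transcript level scaled within each library and corrected for transcript length) in at least 2 libraries, 30 of the 77 were tested, namely 12 collagens, 7 laminins and 11 integrins, among 12060 genes tested in all. Symbols that only begin in the same way (Itgb1bp1, Itgb1bp2 and Itgb3bp) encode integrin-binding or unrelated nuclear proteins and were not counted as members.

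Bulk RNA was sequenced from 5 lines of the mouse ESC line J1, with 2 libraries per line. Naïve J1 (genotype WT), AKO (AMPK KO), GKO (GYS1 KO) and DKO (AMPK, GYS1 KO) were kept on porcine gelatin in serum medium with LIF and with inhibitors of MEK and of GSK3β (2i). Primed PJ1 (genotype WT) grew on Matrigel in serum-replacement medium with bFGF and activin. GKO cells carried a Cas9 indel in Gys1 and were grown from single clones, and AKO cells were made with CRISPR and repair plasmids and sorted by a red fluorescent reporter. The sources used here do not state which clone each library came from, or whether the libraries of a line were separate cultures, so p-values measure only the spread between these libraries. Matrigel is itself a basement membrane extract, so cell state, coating and medium cannot be told apart in any difference between primed and the other lines.

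A laminin is a trimer of an alpha, a beta and a gamma chain. Laminins and type IV collagen each assemble into a sheet, and nidogen and perlecan join the sheets into the basement membrane on which early embryonic epithelia sit. Integrins are pairs of an alpha and a beta subunit that bind these proteins and connect them to the actin cytoskeleton, and in the early mouse embryo the basement membrane and its β1 integrin receptors are needed for the epiblast to polarise. AMPK is the kinase that senses low cellular energy and GYS1 is the glycogen synthase of most tissues outside the liver, so the design asks how loss of glycogen synthesis alters naïve ESCs and which of these changes need AMPK.

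The lines were checked by their knocked-out genes and by cell type markers. Prkaa1, the catalytic α1 subunit of AMPK, measured 15.5 and 16.6 TPM in naïve, 7.24 and 6.94 in AKO, 2.30 and 2.04 in DKO and 12.2 and 12.0 in GKO, so the AMPK-deficient lines were not equal in this mRNA. Gys1 mRNA differed little, with 11.5 and 10.8 TPM in naïve, 9.70 and 9.98 in GKO and 12.1 and 11.7 in DKO, and an indel need not change an mRNA level, so it checks nothing about GYS1 protein. The naïve marker Zfp42 was between 436 and 474 TPM in the 8 libraries kept in 2i and at 0.024 and 0.196 TPM in primed. The primed libraries differed from each other in early-lineage markers, with Fgf5 at 10.7 and 0.447 TPM, T at 8.97 and 0.786 TPM and Sox17 at 3.04 and 0.303 TPM. Of 12 fibroblast markers, 4 were tested, and their list summed to 6.87 and 6.64 TPM in naïve, 10.9 and 12.0 in GKO, 5.10 and 4.86 in DKO and 23.6 and 25.9 in primed. Thy1 and Pdgfrb were higher and Twist1 lower in GKO, Pdgfrb and Tagln were higher and Twist1 lower in DKO, and Dcn, Lum, Postn and Fap did not exceed 0.113 TPM in any library. Of 16 primitive and parietal endoderm markers, 6 were tested, and their list summed to 12.4 and 12.0 TPM in naïve, 11.9 and 13.5 in GKO, 14.9 and 14.2 in DKO and 66.7 and 51.4 in primed. Gata4 and Hnf4a were higher and Fst and Dab2 lower in GKO, Hnf4a was higher and Dab2 lower in DKO, and Gata6, Sox17, Sox7 and Pdgfra did not exceed 0.277 TPM in the 8 libraries in 2i. Of 8 trophoblast markers, 4 were tested, and Cdx2, Krt8 and Krt18 were higher in both GKO and DKO, with list sums of 13.3 and 12.8 TPM in naïve, 25.5 and 26.0 in GKO, 21.8 and 24.1 in DKO and 34.9 and 21.6 in primed. The part of these markers in the results was not tested. In bulk RNA, fewer cells of a type and less RNA per cell cannot be told apart.

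The 4 sequences that follow, 1 around a pair of divergent starts and 3 upstream of a start, belong to the members on which the comparison of the GYS1 knockouts turns. Col4a1 and Col4a2 are shown because they are divergent neighbours on chromosome 8 whose annotated starts lie 21 bases apart, so that their start windows share the 78 bases of chr8:11312777-11312854. Itgb5 and Itga3 are 2 of the 3 integrin subunits that were higher in both GYS1-deficient lines, the third being Itgb4, and Lamb1 is the laminin chain whose change differed most between the AMPK backgrounds. All are from RefSeq on GRCm38.p6, written 5′ to 3′ on the strand given, in lower case with every GGGCGG or its reverse complement CCGCCC (the core of a GC box, the element bound by Sp1-type factors) in capitals.

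Col4a1 and Col4a2, shared stretch on the Col4a2 (plus) strand, chr8:11312777-11312854: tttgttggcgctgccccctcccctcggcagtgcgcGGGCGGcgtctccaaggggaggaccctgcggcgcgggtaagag
Itgb5, 250 bases before the start, plus strand, chr16:33829415-33829664: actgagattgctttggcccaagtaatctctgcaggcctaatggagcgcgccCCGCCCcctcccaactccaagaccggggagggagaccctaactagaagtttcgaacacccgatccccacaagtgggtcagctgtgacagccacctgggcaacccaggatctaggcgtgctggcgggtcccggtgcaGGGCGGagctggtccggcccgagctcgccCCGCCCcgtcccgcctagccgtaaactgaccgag
Itga3, 250 bases before the start, minus strand, chr11:95076715-95076964: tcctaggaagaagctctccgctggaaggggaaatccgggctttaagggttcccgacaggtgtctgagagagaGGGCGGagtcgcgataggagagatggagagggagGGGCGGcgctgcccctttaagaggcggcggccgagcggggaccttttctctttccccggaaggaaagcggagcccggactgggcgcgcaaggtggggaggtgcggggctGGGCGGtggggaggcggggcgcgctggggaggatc
Lamb1, 250 bases before the start, plus strand, chr12:31265043-31265292: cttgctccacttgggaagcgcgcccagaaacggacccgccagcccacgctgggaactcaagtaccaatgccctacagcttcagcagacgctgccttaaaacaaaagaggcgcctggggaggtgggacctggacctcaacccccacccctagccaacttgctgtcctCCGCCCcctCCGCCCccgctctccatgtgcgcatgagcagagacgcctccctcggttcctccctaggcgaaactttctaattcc

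The shared Col4a1 and Col4a2 stretch held 1 GC box core, the Itgb5 and Itga3 stretches 3 each and the Lamb1 stretch 2. Of the 30 tested members, 19 had a window in the RefSeq table, running from 250 bases before to 50 after the start. On either strand, GGGCGG was found in 14 of these 19 windows (73.7%) against 35.7% of all 32851 windows in the table. CCAAT was found in 7 of the 19 (36.8%) against 37.4%, and TATAAA in 0 of the 19 against 13.6%. The 19 are the first window listed for each member, all of which had passed the filter on TPM. The 32851 are every window listed, not reduced to 1 per gene and not filtered on TPM. The 2 shares are therefore not like for like. These letter matches describe the windows and do not mark sites of binding.

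The filter itself shows in which lines the tested members reached 1 TPM. Over all listed genes, 11113 and 11092 were at 1 TPM or more in the primed libraries and 10538 and 10545 in the naïve ones. The share of all genes that reached it only in primed is not given. Among the 30 tested members, 13 were at 1 TPM or more in all 10 libraries, 9 reached 1 TPM only in primed (Col1a1, Col1a2, Col2a1, Col5a2, Col9a3, Col26a1, Lama4, Itgb6 and Itgb8) and 1, the minor fibrillar collagen Col11a1, only in DKO. The β4 subunit Itgb4 reached it in DKO and GKO only. Those 11 entered the tests through the lines in which they were high, so counts over the tested members say nothing about the 47 that were not tested. Among the members named below, Lama1 and Itgb7 reached 1 TPM in the 8 libraries in 2i and in neither primed library. They entered only through the lines in 2i. None of the 47 exceeded 1.26 TPM in any library. Col26a1, just inside the filter, had 1.07 and 1.31 TPM in primed, and Col16a1, just outside it, had 1.26 and 0.75 TPM in its highest 2 libraries.

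In every naïve-medium library the γ1 chain Lamc1 and the common β subunit Itgb1 were the most abundant members, and the summed TPM of all 77 members lay between 334 and 353 in the 8 libraries in 2i and at 417 and 422 in primed. Laminins summed to 163 and 161 TPM in naïve, 163 and 170 in AKO, 177 and 180 in DKO, 151 and 149 in GKO and 107 and 97.8 in primed. Integrins summed to 128 and 132 TPM in naïve, 143 and 143 in GKO, 129 and 125 in DKO and 238 and 261 in primed. Collagens summed to 44.8 and 44.3 TPM in naïve and to 72.1 and 63.4 in primed, most of it in the 2i libraries being Col18a1, whose C-terminal fragment is endostatin.

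**Figure D1:**
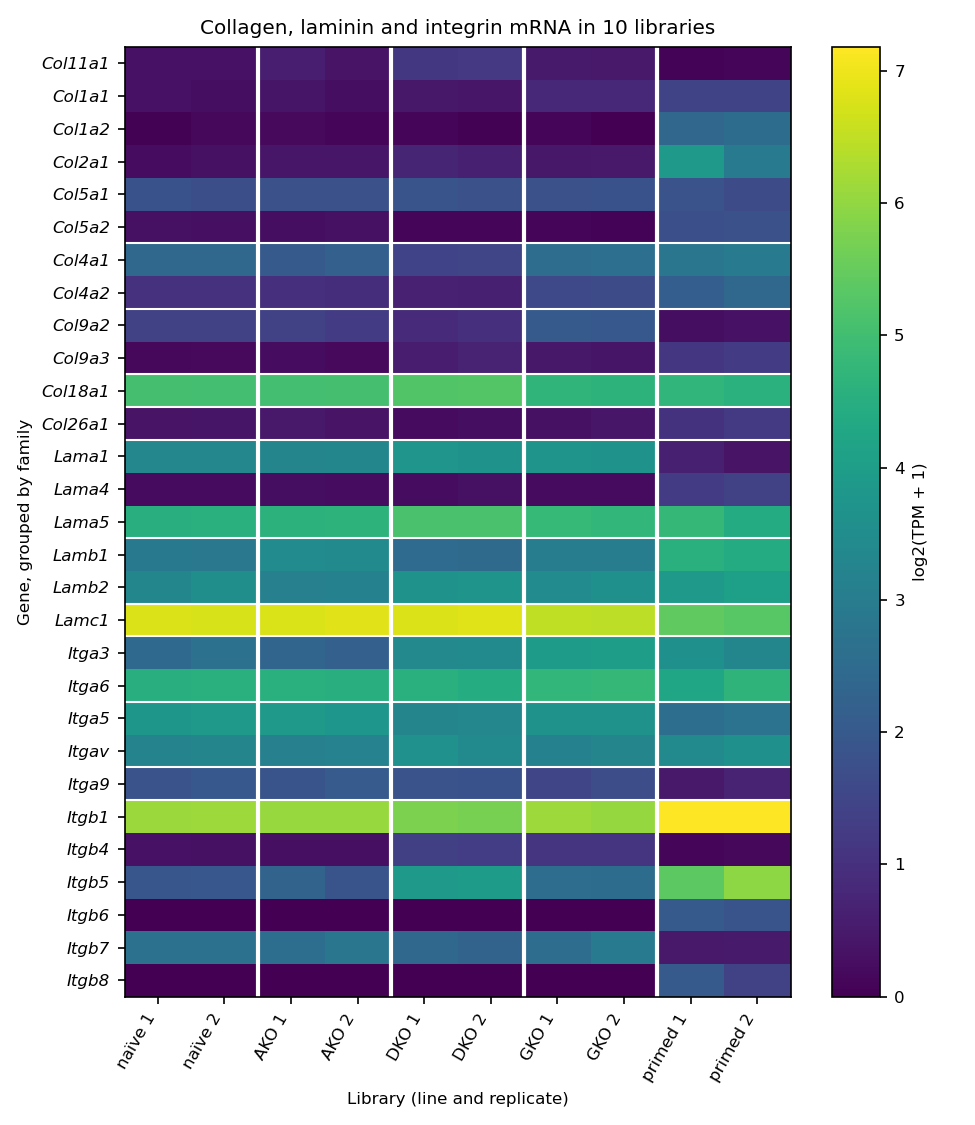
Level of 29 tested members (rows, grouped by family) in each of the 10 libraries (columns), as log2(TPM + 1) on a colour scale. Lamc1 and Itgb1 were the brightest rows in the libraries in 2i, and 9 members reached 1 TPM only in the primed libraries.

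AKO was compared with naïve to ask what AMPK knockout alone did in 2i. Of the 30 members, 1 was higher and 0 were lower, where 0.224% of all genes tested were called (0.0663% higher and 0.158% lower) at an adjusted p under 0.05 (limma with Benjamini-Hochberg adjustment, as for every adjusted p here). At an unadjusted limma p under 0.05, 1 was higher and 3 were lower. The member called was Lamb1, the β1 chain of the most widely expressed early laminins. It measured 6.44 and 6.36 TPM in naïve and 9.97 and 9.78 TPM in AKO. The lines did not overlap, and the difference was 0.56 ± 0.06 (SE) on the log2(TPM + 1) scale with adjusted p = 0.0281. The call was lost in limma without any 1 of the naïve, AKO, DKO or GKO libraries, with adjusted p between 0.0701 and 0.318. It was also lost when the median change of its chromosome was subtracted (0.40, adjusted p = 0.0843 in limma), since genes of chromosome 12 had a median change of 0.155 in AKO. No other member was called, among them Col4a1, the main type IV collagen chain, at 3.11 and 3.61 TPM in AKO against 4.35 and 4.36 in naïve (-0.30 ± 0.09, limma adjusted p = 0.252).

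GKO was compared with naïve to ask what loss of GYS1 did in 2i. In limma 8 members were higher and 3 lower, 36.7% of the 30, where 51.7% of all genes tested were called (24.7% higher and 27.1% lower). When the fit held no other line, 17 members were called (12 higher and 5 lower). The share of all genes called in that smaller fit is not given, so this count cannot be set against 51.7%. The median change was 0.08 over the members and -0.01 over all genes tested. Collagens gave 4 higher and 2 lower of 12, laminins 1 and 1 of 7, and integrins 3 and 0 of 11, with 2 integrins lower at an unadjusted limma p under 0.05. All the comparisons with naïve share the naïve libraries, and their values are given side by side with that in mind.

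On the log2(TPM + 1) scale, the largest rise in GKO was that of Itga3, the α3 subunit, which pairs with β1 as a laminin receptor. Its level was 4.52 and 5.36 TPM in naïve, 4.02 and 3.61 in AKO, 9.37 and 9.90 in DKO, 14.7 and 15.4 in GKO and 11.3 and 8.81 in primed. Every DKO and GKO library was above every naïve and AKO library, and GKO was the highest line. The change was 1.44 ± 0.11 in GKO (limma adjusted p = 2.08e-05) and 0.84 ± 0.11 in DKO (limma adjusted p = 0.000433) against naïve, and 1.14 ± 0.11 in DKO against AKO (limma adjusted p = 8.50e-05). Its GKO level was also above that of DKO, by 0.60 ± 0.11 (limma adjusted p = 0.00308). The effect of GYS1 knockout did not pass the test of a difference between the WT and AMPK KO backgrounds (0.30 ± 0.16, limma adjusted p = 0.209), which does not show that the effects were equal.

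Itgb4, the β4 subunit of the hemidesmosome, was also highest in the GYS1-deficient lines, at a low level. It measured 0.287 and 0.250 TPM in naïve, 0.221 and 0.238 in AKO, 1.56 and 1.48 in DKO, 1.12 and 1.11 in GKO and 0.097 and 0.112 in primed. The GYS1-deficient lines were above all others, by 0.74 ± 0.07 in GKO and 0.99 ± 0.07 in DKO against naïve, but Itgb4 passed the filter only through these lines, so no p is given for either. Its usual partner Itga6, the α6 subunit, did not pass the test in either, with 22.0 and 22.6 TPM in naïve, 26.1 and 26.3 in GKO (0.22 ± 0.11, limma adjusted p = 0.112) and 22.6 and 21.0 in DKO. The GKO call was gained when only the 2 lines were fitted or either primed library was left out (limma adjusted p = 0.00302 to 0.0051).

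Itgb5, which pairs with αV to bind vitronectin, was 2.78 and 2.89 TPM in naïve, 3.88 and 2.65 in AKO, 13.8 and 14.5 in DKO, 4.90 and 4.85 in GKO and 40.1 and 60.8 in primed. DKO stood between the other 2i lines and primed, with no overlap on either side. It rose by 1.98 ± 0.18 in DKO (limma adjusted p = 5.83e-05) and by 0.61 ± 0.18 in GKO (limma adjusted p = 0.0200) against naïve. The SE was pooled over all 5 lines, including primed, whose libraries lay far apart. The GKO call was lost without any 1 of the naïve or GKO libraries, at limma adjusted p = 0.0678 to 0.0846. The effect of GYS1 knockout on Itgb5 was larger in the AMPK KO background (1.84 ± 0.18, DKO against AKO) than in the WT background, and the difference of -1.23 ± 0.26 passed the test (limma adjusted p = 0.00906). Its partner Itgav rose in DKO too, from 8.20 and 8.64 TPM in naïve to 11.4 and 9.92 TPM (0.31 ± 0.09, limma adjusted p = 0.0169), against 7.96 and 8.68 in GKO. That call was lost without naïve replicate 1 (limma adjusted p = 0.0978) or DKO replicate 1 (0.123).

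**Figure D2:**
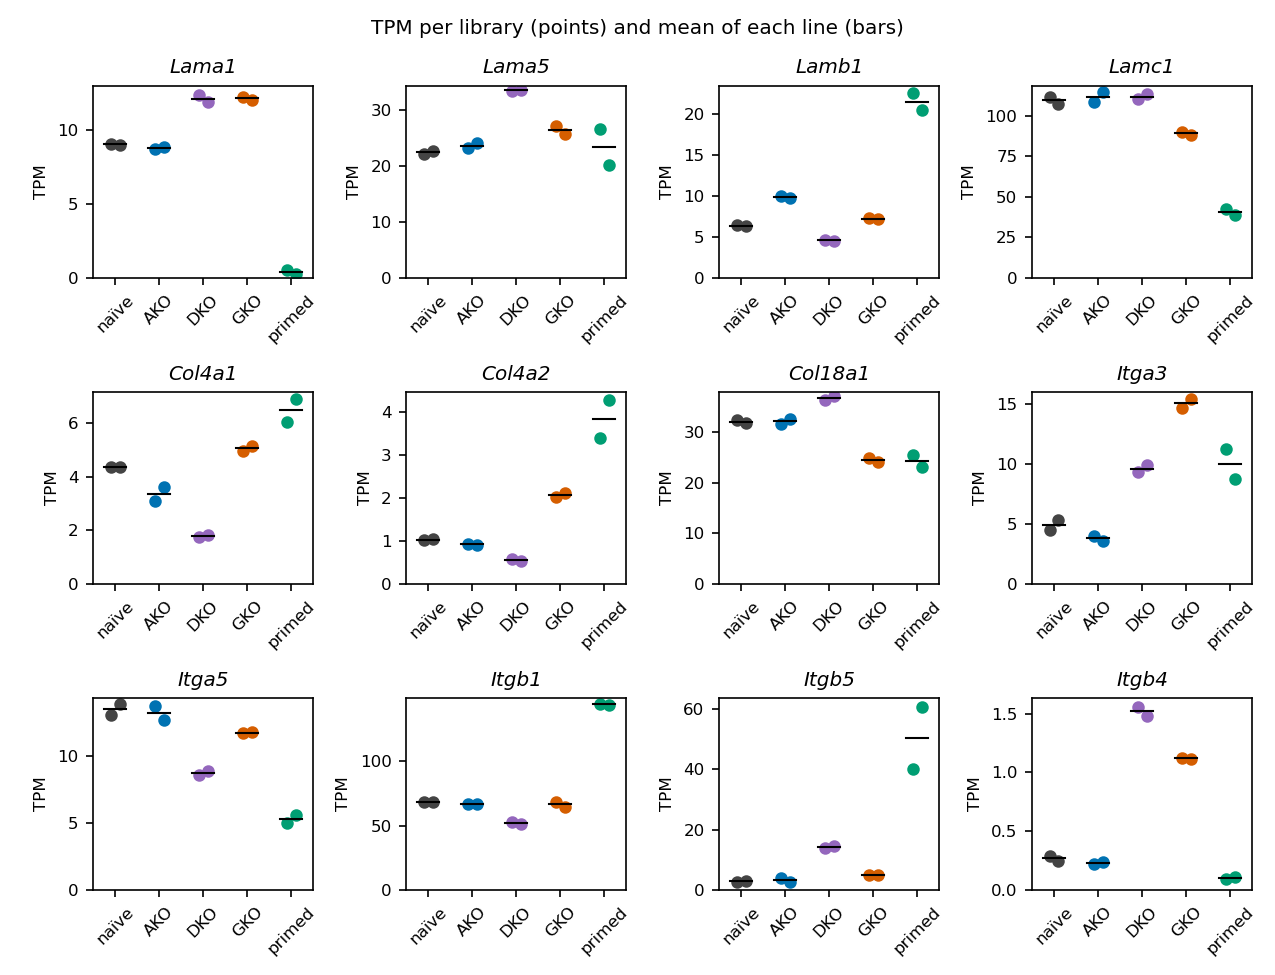
TPM of 12 members in each line (x axis), with points for the 2 libraries and a bar for their mean, each panel on its own linear axis from 0. Itga3 and Itgb4 were highest outside primed in the 2 GYS1-deficient lines, Itgb5 in DKO (13.8 and 14.5 TPM) below primed, and Col4a1 lowest in DKO (1.74 and 1.84 TPM).

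Fewer transcripts of 3 other integrins were found in DKO. Itgb1, the β subunit shared by most laminin, fibronectin and collagen receptors, was 67.9 and 68.6 TPM in naïve, 66.6 and 66.7 in AKO, 68.5 and 64.6 in GKO and 53.1 and 50.9 in DKO. DKO lay below every other library, by 0.39 ± 0.04 against naïve (limma adjusted p = 0.000168), while primed at 144 and 144 TPM lay above all. Itga5, the α5 subunit of the fibronectin receptor, was 13.1 and 13.9 TPM in naïve, 13.8 and 12.7 in AKO, 11.7 and 11.8 in GKO, 8.62 and 8.92 in DKO and 5.00 and 5.64 in primed. It fell by 0.57 ± 0.07 in DKO against naïve (limma adjusted p = 0.000315). The lymphocyte β7 subunit Itgb7 had 4.23 and 3.90 TPM in DKO against 5.40 and 5.50 in naïve (-0.35 ± 0.12, limma adjusted p = 0.0431), a call lost without any 1 of the naïve or DKO libraries (0.0904 to 0.178) and when the chromosome 15 median was subtracted (0.246).

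As shares of summed integrin TPM in a library, the receptor make-up therefore differed by line. Itga3 made up 8.85% and 9.85% of alpha subunit TPM in naïve, 23.2% and 23.6% in GKO and 16.8% and 18.5% in DKO, while Itga5 went from 25.6% in both naïve libraries to 18.5% and 18.1% in GKO and 15.4% and 16.6% in DKO. Itgb5 made up 3.63% and 3.74% of beta subunit TPM in naïve, 6.14% and 6.24% in GKO, 18.9% and 20.4% in DKO and 21.0% and 29.0% in primed. The share of Itgb1 was 88.6% and 88.5% in naïve, 72.4% and 71.5% in DKO and 75.4% and 68.6% in primed, so that it was lower in primed although its level was higher there. These shares are descriptions, and with 2 libraries a line no exact two-sided test can pass 0.05.

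DKO was compared with naïve to ask what remained when both genes were knocked out. In limma 9 members were higher and 8 lower, 56.7% of the 30, where 46.0% of all genes tested were called (21.7% higher and 24.3% lower). The median change was 0.02 over the members and -0.01 over all genes tested. Collagens gave 3 higher and 4 lower, laminins 2 and 1, and integrins 4 and 3.

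The type IV collagen chains, which assemble as α1 and α2 trimers, moved apart between GKO and DKO. Col4a1 measured 4.35 and 4.36 TPM in naïve, 4.96 and 5.15 in GKO, 1.74 and 1.84 in DKO and 6.05 and 6.90 in primed. DKO was below every other library (-0.94 ± 0.09 against naïve, limma adjusted p = 5.69e-05) and GKO above the naïve libraries without passing the test (0.18 ± 0.09, limma adjusted p = 0.116). Col4a2 measured 1.03 and 1.04 TPM in naïve, 0.941 and 0.907 in AKO, 2.02 and 2.13 in GKO, 0.592 and 0.547 in DKO and 3.41 and 4.29 in primed. It rose by 0.59 ± 0.09 in GKO (limma adjusted p = 0.000812) and fell by 0.38 ± 0.09 in DKO (limma adjusted p = 0.00995). The fall was at limma adjusted p = 0.0532 without naïve replicate 2 and 0.0568 without DKO replicate 2.

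Direct comparison of GKO with DKO, which differ by the AMPK knockout, gave 9 members higher and 7 lower in GKO in limma, 53.3% of the 30, where 43.5% of all genes tested were called (21.2% higher and 22.4% lower). Col4a1 was higher in GKO by 1.12 ± 0.09 (limma adjusted p = 2.59e-05) and Col4a2 by 0.97 ± 0.09 (limma adjusted p = 7.92e-05), the pair whose starts lie 21 bases apart in the sequence above. Between them in size was Col9a2, a chain of the fibril-associated type IX collagen of cartilage, higher by 1.07 ± 0.08 (limma adjusted p = 2.59e-05). Col9a2 had 1.63 and 1.60 TPM in naïve, 1.61 and 1.40 in AKO, 3.06 and 2.91 in GKO, 0.823 and 0.985 in DKO and 0.199 and 0.273 in primed. It lay above all other libraries in GKO and, among the lines in 2i, below all others in DKO.

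Col18a1, the most abundant collagen in 2i, went the opposite way. It was 32.4 and 31.8 TPM in naïve, 31.7 and 32.7 in AKO, 24.9 and 24.1 in GKO, 36.3 and 37.3 in DKO and 25.6 and 23.1 in primed. It fell by 0.38 ± 0.06 in GKO (limma adjusted p = 0.000522), where the libraries overlapped those of primed. It rose by 0.19 ± 0.06 in DKO (limma adjusted p = 0.0192), a call lost without any 1 of the naïve or DKO libraries (0.0536 to 0.0987). Col11a1 was 0.279 and 0.271 TPM in naïve, 0.522 and 0.300 in AKO, 0.427 and 0.416 in GKO and 1.25 and 1.28 in DKO, with a difference of 0.83 ± 0.09 from naïve in DKO, the line through which it passed the filter. Col5a2, a fibrillar chain, was under 0.27 TPM in every library in 2i, and its falls of 0.21 in GKO and 0.20 in DKO (limma adjusted p = 0.0381 and 0.0441) were each lost without any 1 of the 8 libraries in 2i (0.0516 to 0.186) and with the replicate number as a block (0.0564 and 0.0651). No fibrillar chain with a call among the lines in 2i exceeded 1.28 TPM there.

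Among laminin alpha chains, Lama1, the α1 chain of laminin-111, rose in both GYS1-deficient lines. It measured 9.05 and 8.98 TPM in naïve, 8.69 and 8.81 in AKO, 12.3 and 11.8 in DKO, 12.2 and 12.0 in GKO and 0.552 and 0.301 in primed. The DKO and GKO libraries were above those of all other lines, by 0.39 ± 0.09 each against naïve (limma adjusted p = 0.00582 and 0.00503), calls lost when the pseudocount was 0.1 in place of 1 TPM (0.0924 and 0.0834). Lama5, the α5 chain of laminin-511, was 22.2 and 22.8 TPM in naïve, 23.3 and 24.1 in AKO, 33.5 and 33.7 in DKO, 27.2 and 25.8 in GKO and 26.7 and 20.2 in primed. It rose by 0.56 ± 0.10 in DKO (limma adjusted p = 0.00236) and did not pass the test in GKO (0.23 ± 0.10, limma adjusted p = 0.0972), though it did so when only the 2 lines were fitted or either primed library was left out (0.00189 to 0.0084). Lama1 held 28.6% and 27.9% of alpha chain TPM in naïve, 30.8% and 31.5% in GKO and 26.6% and 25.7% in DKO, against 1.92% and 1.35% in primed, where Lama5 held 93.0% and 90.6%.

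The beta chains separated the AMPK-deficient lines. Lamb1, raised in AKO as given above, was 4.68 and 4.54 TPM in DKO, 7.26 and 7.21 in GKO and 22.5 and 20.5 in primed. Within 2i, DKO was thus the lowest line and AKO the highest. DKO was below naïve by 0.40 ± 0.06 (limma adjusted p = 0.00108) and below AKO by 0.95 ± 0.06 (limma adjusted p = 1.17e-05), and GKO did not pass the test against naïve (0.15 ± 0.06, limma adjusted p = 0.0713), though it did so under median-ratio scaling or without either primed library (0.0330 to 0.0447). Lamb2, the β2 chain, was 8.80 and 10.8 TPM in naïve, 7.82 and 7.84 in AKO, 11.7 and 12.1 in DKO, 9.96 and 11.1 in GKO and 13.4 and 15.7 in primed. Lamb1 therefore held 41.8% and 36.4% of beta chain TPM in naïve, 55.4% and 55.3% in AKO, 28.3% and 27.0% in DKO, 41.4% and 38.8% in GKO and 62.4% and 56.5% in primed. The γ1 chain Lamc1 was 112 and 107 TPM in naïve, 108 and 114 in AKO, 110 and 113 in DKO and 89.9 and 88.2 in GKO, where it fell by 0.29 ± 0.05 (limma adjusted p = 0.00141).

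**Figure D3:**
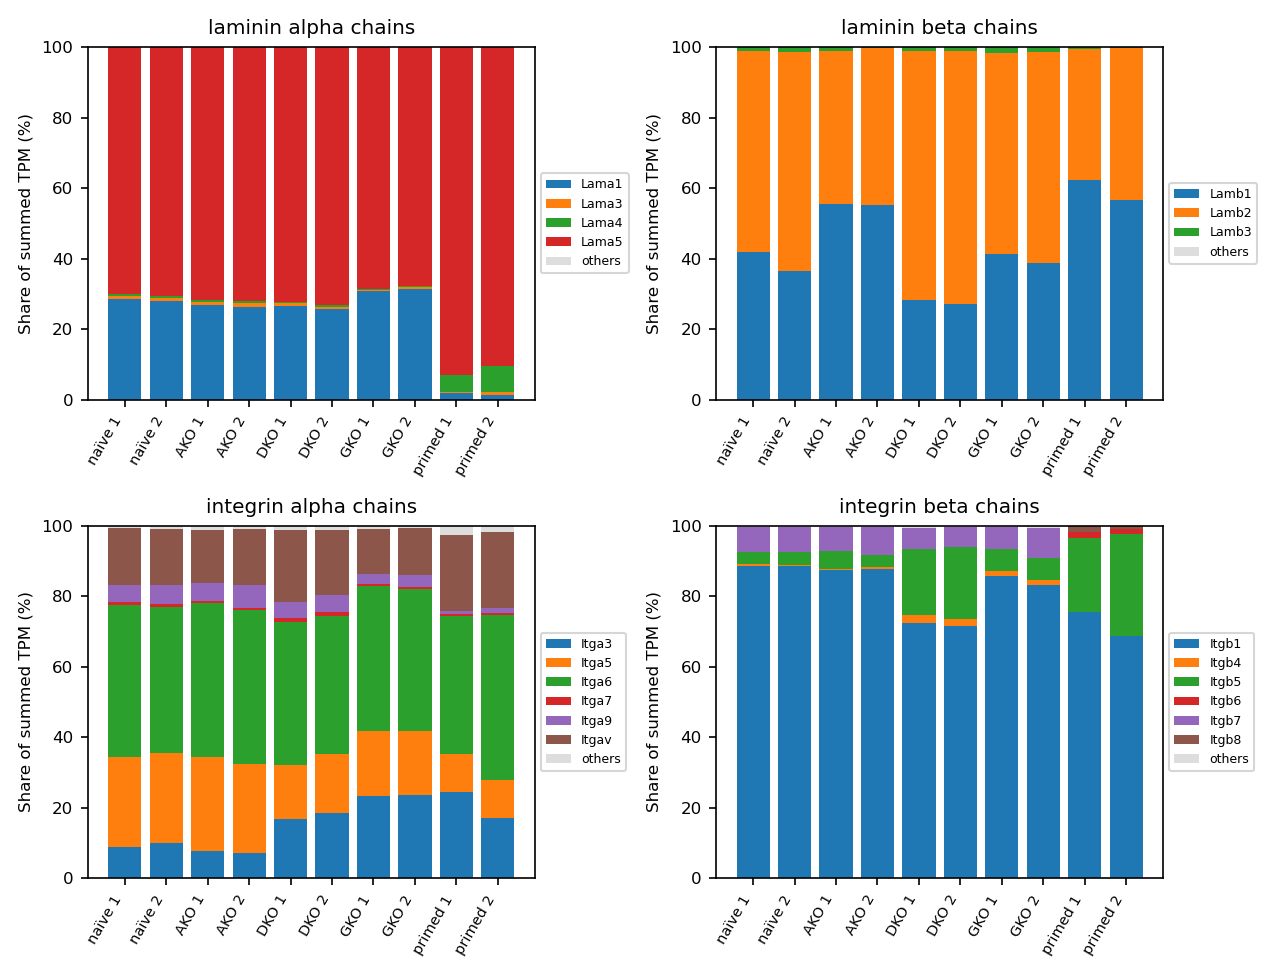
Share of the summed TPM (y axis, percent) taken by each chain of the laminin alpha, laminin beta, integrin alpha and integrin beta families, 1 bar for each library, with grey for chains not shown by name. Lamb1 took 55.4% and 55.3% of beta chain TPM in AKO and 28.3% and 27.0% in DKO, and Itgb5 took 18.9% and 20.4% of integrin beta TPM in DKO.

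Lines with and without GYS1 knockout were compared in the WT background (GKO against naïve) and the AMPK KO background (DKO against AKO). The libraries are not shared. Against naïve, genes of chromosome 14 had median changes of 0.472 in GKO, 0.363 in DKO, 0.538 in primed and -0.009 in AKO. On chromosome 19 these were -0.396, -0.265, -0.445 and -0.004, and on chromosome 15 they were -0.159, -0.16, -0.217 and 0.026. Other differences that GKO and DKO share therefore cannot be told apart from GYS1 knockout in either comparison. The effect of GYS1 knockout is meant below with that limit. DKO against AKO gave 10 members higher and 7 lower in limma, 56.7% of the 30, where 46.3% of all genes tested were called (22.4% higher and 23.9% lower). In the WT background 11 members were called, and 8 of these were called in both, which is 72.7% of the calls in WT and 47.1% of the calls in AMPK KO. Over all genes tested, the genes called in both were 58.8% of the calls in WT and 65.7% of the calls in AMPK KO. Of the 8, 5 had the same direction (Col9a3, Lama1, Itga3, Itgb4 and Itgb5, all higher, of which Itgb4 entered only through DKO and GKO) and 3 the opposite (Col4a2, Col9a2 and Col18a1). The same direction was thus seen in 62.5% of the members called in both, and in 87.5% of the 3672 genes called in both over all genes tested. The DKO against AKO calls of Col18a1 (0.188) and Col4a2 (-0.294) were each lost without any 1 of the AKO or DKO libraries. Limits on the Itgb5 and Lama1 calls are given above.

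The difference between the effects of GYS1 knockout in the WT and AMPK KO backgrounds passed the test for 12 of the 30 members (40.0%), 7 with a more positive and 5 with a more negative effect in WT, where 25.8% of all genes tested passed (12.8% more positive and 13.1% more negative). On the log2(TPM + 1) scale, Lamb1 had the largest positive difference, 1.11 ± 0.09 (limma adjusted p = 0.000123). Next were Col9a2 at 1.00 ± 0.12 (limma adjusted p = 0.000571), Col4a2 at 0.89 ± 0.13 (0.00190) and Col4a1 at 0.82 ± 0.12 (0.00189). The largest negative ones were those of Itgb5 (-1.23 ± 0.26), Col18a1 (-0.56 ± 0.08, limma adjusted p = 0.00127) and Col11a1 (-0.53 ± 0.12), the last of which entered the tests only through DKO. In the AMPK KO background, DKO was below AKO by 0.64 ± 0.09 for Col4a1 (limma adjusted p = 0.000416) and by 0.29 ± 0.09 for Col4a2 (0.0297), the latter call being lost without any 1 of the AKO or DKO libraries (0.0833 to 0.124). Col4a1, Col4a2 and Lamb1 thus fell with GYS1 knockout in AMPK KO cells. In WT cells they either rose or did not pass the test. They do not stand for basement membrane genes as a set. Of the 7 laminins, 3 rose in DKO against AKO and 1 fell. The rises were those of Lamb2 (0.545, limma adjusted p = 0.00272), Lama5 (0.487, 0.0048) and Lama1 (0.425, 0.00362). The Lama1 call was lost at a pseudocount of 0.1 TPM (limma adjusted p = 0.0682). Prkaa1 was lower in DKO than in AKO, as given above, so that these contrasts also hold a difference in that mRNA, and its part in them was not tested.

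**Figure D4:**
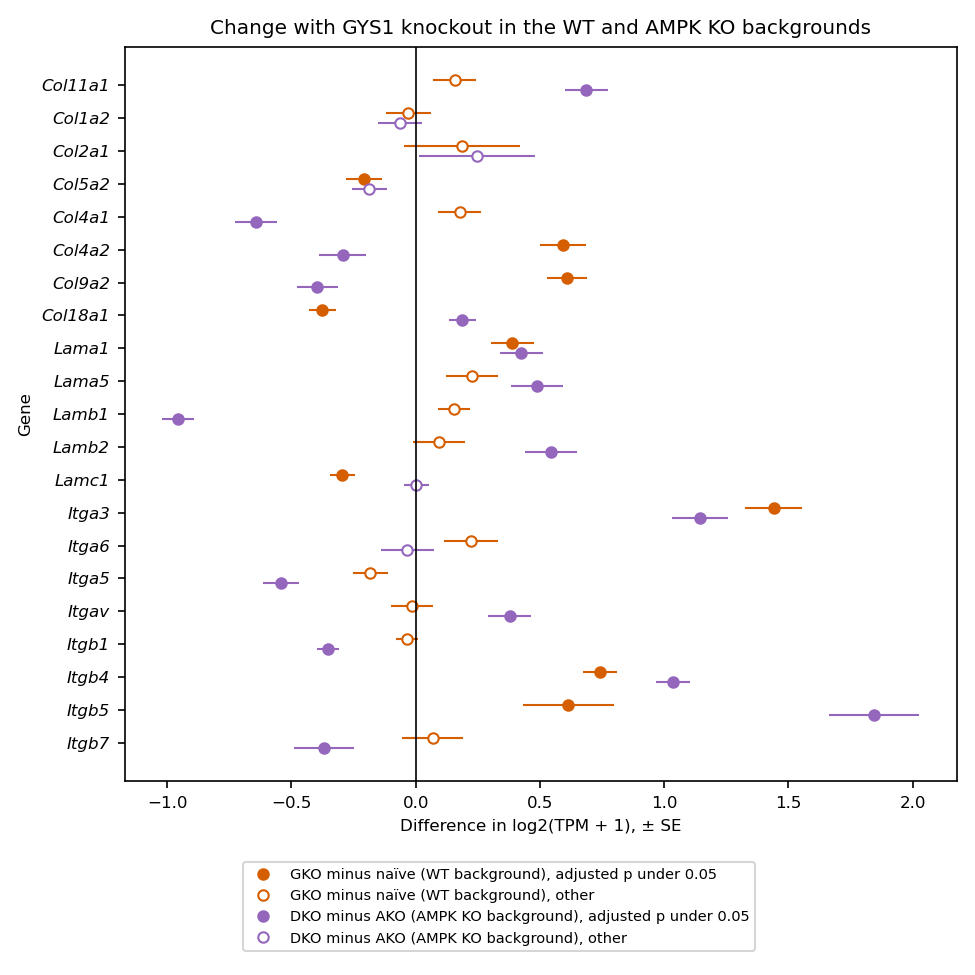
Difference in log2(TPM + 1) with its SE (x axis) for 21 named members (y axis), for GKO minus naïve (orange) and DKO minus AKO (purple), with filled points where the limma adjusted p was under 0.05. Itga3, Itgb4, Itgb5 and Lama1 lie to the right of 0 in both, while Col4a2 and Col9a2 lie to the right in one (0.59 and 0.61) and to the left in the other (-0.29 and -0.40).

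Primed was compared with naïve as the reference for exit from the naïve state. In limma 17 members were higher and 10 lower, 90.0% of the 30, where 80.0% of all genes tested were called (37.4% higher and 42.5% lower), and 9 of the 30 had entered only through primed. When either primed library was left out, these 9 no longer passed the filter and could not be tested. The counts for primed against naïve and for GKO against primed then covered fewer members and fell. The median change was 0.50 over the members and -0.06 over all genes tested. Collagens gave 8 higher and 3 lower, laminins 3 and 3, and integrins 6 and 4. GKO against primed gave 11 higher and 16 lower, where 77.1% of all genes tested were called (39.4% higher and 37.7% lower).

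Several fibrillar collagens reached 1 TPM only in primed, through which they entered the tests, so their levels are given without a p. Col2a1, the fibrillar chain of cartilage, which is also made by the notochord and early epithelia, was at most 0.673 TPM in any library in 2i and 13.7 and 6.74 TPM in primed, a difference of 3.13 ± 0.23. Replicate 1 was the higher primed library for Col2a1, as it was for Fgf5, T and Sox17. Col1a2, the α2 chain of type I collagen, was at most 0.125 TPM in 2i and 4.18 and 4.84 TPM in primed, a difference of 2.36 ± 0.09. Its partner Col1a1 was 0.284 and 0.210 TPM in naïve, 0.739 and 0.724 in GKO and 1.80 and 1.76 in primed, and was singled out after its values were seen. Col5a1, the fibrillar chain at 1 TPM or more in all 10 libraries, was not called, with 2.54 and 2.31 TPM in naïve and 2.58 and 2.10 in primed (-0.04 ± 0.09, limma adjusted p = 0.682).

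The laminin α1 chain was nearly lost in primed. Lama1 fell by 2.82 ± 0.09, and no p is given because it passed the filter only through the lines in 2i. Lamc1 fell to 42.3 and 39.1 TPM (-1.41 ± 0.05, limma adjusted p = 1.63e-08), while Lamb1 rose by 1.60 ± 0.06 (limma adjusted p = 2.86e-08). Lama5 did not pass the test (0.04 ± 0.10, limma adjusted p = 0.700), and its primed libraries spanned the naïve ones. Primed cells thus had less α1 and γ1 chain mRNA and more β1 chain mRNA than naïve cells.

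Transcripts of the β1 and β5 subunits were higher in primed. Itgb1 rose by 1.07 ± 0.04 (limma adjusted p = 3.23e-08) and Itgb5 by 3.71 ± 0.18 (limma adjusted p = 1.06e-07). Itgb7 fell to 0.397 and 0.426 TPM (-2.19 ± 0.12), without a p because it passed the filter only through the lines in 2i. Itga5 fell by 1.20 ± 0.07 (limma adjusted p = 4.01e-07). Itgb6 and Itgb8, β subunits that pair with αV and activate latent TGFβ, were at or below 0.009 TPM in the 8 libraries in 2i and at 3.11 and 2.64 TPM and 3.13 and 1.69 TPM in primed, and they were named after their values were seen.

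Set beside primed, the GYS1-deficient lines shared the direction for some members and not for others. Of the members named, Itga3, Itgb5, Col4a2, Col1a1 and Col9a3 were higher than naïve in both GKO and primed, and Col18a1 and Lamc1 were lower in both. Lama1 and Col9a2 were higher than naïve in GKO and lower in primed, Col5a2 was lower in GKO and higher in primed, and Itgb4 was higher in GKO at 0.74 and lower in primed at -0.20 ± 0.07 (limma adjusted p = 0.0242), the primed call being lost without any 1 of the naïve or primed libraries (0.0624 to 0.117). In DKO, Itga5, Itgb7 and Col9a2 were lower and Itga3, Itgav, Itgb5 and Col9a3 higher as in primed. Lama1, Col18a1, Col11a1 and Itgb4 were higher in DKO and lower in primed, and Itgb1, Col4a1, Col4a2, Col5a2 and Lamb1 were lower in DKO and higher in primed. The Col11a1 fall in primed was small (-0.247), and its call was lost without any 1 of the naïve or primed libraries. The limit on the Col18a1 rise in DKO is given above. Col1a1, Col9a3 and Col5a2 passed the filter only through primed, Col11a1 only through DKO, and Itgb4 only through DKO and GKO. Their rises in those lines were therefore fixed by the filter. Both sets of comparisons use the naïve libraries, so these directions are given side by side and were not tested against each other. The share of all genes with a shared direction is not given.

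Genes that process or surround these proteins were followed as 5 lists. Of their 68 tested genes, 0 were called in AKO against naïve by limma, and 7 were higher and 5 lower at an unadjusted p under 0.05. Of 17 tested genes of collagen synthesis and crosslinking, 7 were higher and 6 lower in GKO, 7 and 5 in DKO, and 11 and 5 in primed, each against naïve, with medians of 0.05, -0.04 and 1.16 beside -0.01, -0.01 and -0.06 over all genes tested. The called shares were 76.5%, 70.6% and 94.1%, where 51.7%, 46.0% and 80.0% of all genes tested were called. P4ha2, a prolyl 4-hydroxylase subunit that stabilises the triple helix, was 0.407 and 0.478 TPM in naïve, 2.09 and 2.65 in DKO, 3.59 and 3.40 in GKO and 14.2 and 14.4 in primed. Fkbp10, an endoplasmic reticulum chaperone of collagen, was 1.25 and 1.31 TPM in naïve, 3.33 and 4.11 in DKO, 6.08 and 5.86 in GKO and 25.6 and 24.1 in primed. Both were ordered naïve, DKO, GKO and primed with no overlap. Serpinh1, the collagen chaperone HSP47, was 17.0 and 16.9 TPM in naïve, 24.1 and 26.2 in GKO, 11.7 and 12.3 in DKO and 450 and 389 in primed, so that it rose in GKO (0.54, limma adjusted p = 0.000618) and fell in DKO (-0.47, limma adjusted p = 0.00173). Pcolce, which aids the cleavage of procollagen, fell from 155 and 153 TPM in naïve to 114 and 116 in GKO, 71.0 and 69.4 in DKO and 9.59 and 6.77 in primed, the GKO call being lost without any 1 of the naïve or GKO libraries (limma adjusted p = 0.0535 to 0.0665).

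**Figure D5:**
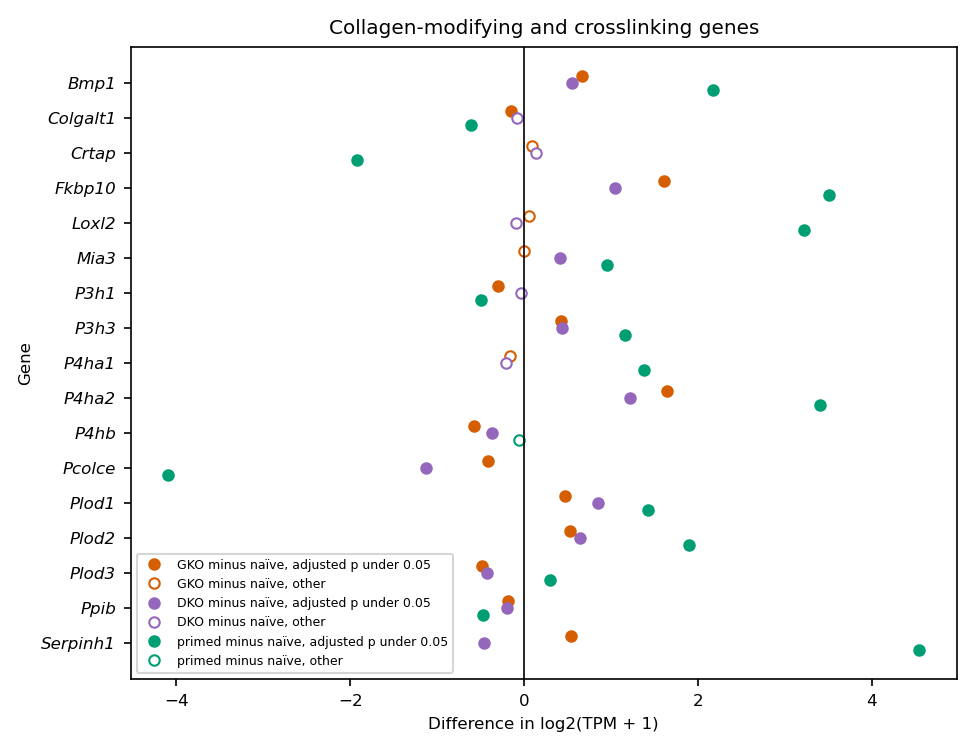
Difference in log2(TPM + 1) against naïve (x axis) for the 17 tested genes of collagen synthesis and crosslinking (y axis), in GKO (orange), DKO (purple) and primed (green), with filled points where the limma adjusted p was under 0.05. P4ha2 and Fkbp10 lie to the right of 0 in all, and Serpinh1 is to the right in GKO and primed and to the left in DKO.

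Of 14 tested genes of other basement membrane and matrix proteins, 5 were higher and 3 lower in GKO, 5 and 4 in DKO, and 6 and 7 in primed, or 57.1%, 64.3% and 92.9% called beside the 51.7%, 46.0% and 80.0% of all genes. Nid1, the nidogen that bridges laminin and type IV collagen, was 20.0 and 20.5 TPM in naïve, 34.9 and 35.1 in GKO, 43.1 and 41.5 in DKO and 2.19 and 2.73 in primed, so that it was highest in DKO and GKO and lowest in primed, as Lama1 was. Smoc1, a matricellular protein of basement membranes, was 6.71 and 6.91 TPM in naïve, 1.20 and 1.07 in GKO and 0.661 and 0.454 in DKO (-1.87 and -2.33, limma adjusted p = 8.29e-05 and 3.66e-05). Pxdn, the peroxidase that forms the sulfilimine bond between type IV collagen trimers, was 1.06 and 1.17 TPM in naïve, 3.22 and 3.04 in GKO, 0.869 and 0.796 in DKO and 28.8 and 34.3 in primed. Like Col4a2, it rose in GKO and primed, and it did not pass the test in DKO (-0.21, limma adjusted p = 0.117), though it did so under 4 alternatives (0.0216 to 0.0457).

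Of 20 tested integrin adaptors and signalling genes, 5 were higher and 6 lower in GKO, 9 and 2 in DKO, and 7 and 11 in primed. The 11, 11 and 18 called were shares close to those of all genes, 51.7%, 46.0% and 80.0%. Zyx, a protein of focal adhesions under tension, was 4.76 and 5.25 TPM in naïve, 10.3 and 10.5 in DKO, 16.7 and 13.3 in GKO and 38.6 and 18.0 in primed, the DKO call being lost without any 1 of the naïve or DKO libraries (limma adjusted p = 0.0660 to 0.0966). Fermt2, the kindlin that activates β1 integrins, was 24.7 and 25.2 TPM in naïve, 55.7 and 51.3 in GKO and 41.4 and 43.3 in DKO. It lies on chromosome 14, whose genes had a median change of 0.47 in GKO. Its change of 1.07 in GKO was 0.60 with that median subtracted (limma adjusted p = 8.66e-05), and its change of 0.74 in DKO was 0.38 (limma adjusted p = 0.00125), each call being kept. Of 9 non-integrin receptors, 2 were higher and 2 lower in GKO, 2 and 1 in DKO, and 5 and 3 in primed (44.4%, 33.3% and 88.9%). Of 8 matrix proteases and inhibitors, 4 were higher and 2 lower in both GKO and DKO, and 6 and 2 in primed (6, 6 and 8 called, beside the same shares of all genes as above). Timp1, an inhibitor of matrix metalloproteases, fell from 70.8 and 74.8 TPM in naïve to 40.7 and 41.1 in GKO, and Mmp2, a gelatinase, went from 0.791 and 0.864 TPM to 1.50 and 1.68 in GKO and 27.3 and 28.2 in primed.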

How the data were processed

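The authors trimmed reads with Trim Galore, aligned them with STAR and estimated expression with RSEM 1.3.3, and deposited TPM per protein-coding gene and library. Their methods name GRCm39, and their processing notes name STAR 2.7.9a and other builds. TPM keeps no read depth, so no counting interval could be given, and RSEM apportions reads between similar transcripts. Listed genes added up to 500162 to 578952 TPM a library. Groups came from the sample titles, and there were 0 other columns of values per sample.

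From the deposited TPM, log2(TPM + 1) of the 12060 genes at 1 TPM or more in at least 2 of the 10 libraries was fitted with limma 3.58.1 in R 4.3.3, with 1 mean per line, a trend on intensity and Benjamini-Hochberg adjustment over all genes tested, two-sided, at 0.05. Changes are on this scale and understate those of low genes. The fit was tested on simulated data. Chromosomes were from GENCODE vM39 (11758 tested genes matched) and sequences from RefSeq.

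Members and lists were chosen with earlier results of these data known. The genes named were members with a line mean of at least 5 TPM, the 3 called members with the largest rise and fall in each comparison, and in each list the genes of largest change in GKO and primed; others are marked where named. Of these, 1 member is not reported here, though it is in the counts. Alternatives were other pseudocounts, filters, scalings, fits and libraries left out.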

Additional observations from a re-analysis of the deposited data

Results flagged for a closer look

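For 12 members the effect of GYS1 knockout differed between backgrounds, by the limma test of (GKO minus naïve) minus (DKO minus AKO) on the log2 scale, at an adjusted p under 0.05 after Benjamini-Hochberg adjustment. The effect was more positive in the WT background for Lamb1 (1.11), Col9a2 (1.00), Col4a2 (0.89), Col4a1 (0.82), Itga5 (0.36), Col1a1 (0.36) and Itgb1 (0.32). Of these, Col1a1 entered the tests only through primed. The effect was more negative in the WT background for Itgb5 (-1.23), Col18a1 (-0.56), Col11a1 (-0.53), Itgav (-0.40) and Lamc1 (-0.30). In limma the call of Itga5 was lost without 7 of the 8 libraries in the contrast (adjusted p up to 0.115), that of Itgav without 7 of the 8 and under several scalings (up to 0.136), that of Lamc1 without naïve replicate 1, AKO replicate 1, DKO replicate 2 or GKO replicate 2 (up to 0.0730) and that of Col11a1 without naïve replicate 1 (0.0524) and at a pseudocount of 0.1 TPM (0.0616), where Col11a1 had entered the tests only through DKO. The Col1a1 call was lost without 7 of the 8 libraries and under 3 alternatives (up to 0.141). The calls of Lamb1, Col4a1, Col4a2, Col9a2, Col18a1, Itgb1 and Itgb5 held in every alternative in which they were tested.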

How the results depend on the processing

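No value recomputed for the report changed direction in any alternative run. Among the recomputed values of named genes, a library left out ended a call 117 times, and each other alternative ended between 0 and 7 calls (7 with no filter). Of the counts of members called, that for AKO against naïve went from 1 to 0 with only the lines compared in the fit or with the chromosome median subtracted, and ranged from 0 to 1 over the libraries left out. With a filter at a mean of 5 TPM, which tests fewer genes, the counts called were lower. They were 5 for GKO and 9 for DKO against naïve, where the main filter gave 11 and 17. Primed against naïve gave 10 and GKO against primed 10, where each had been 27. GKO against DKO gave 9 (main 16) and DKO against AKO 10 (main 17). Members that did not pass this filter could not be called. All 90 values of named genes recomputed under it kept their direction and their call or lack of one. With no filter, which tests more, the counts for primed were 52 against naïve and 51 against GKO. The numbers of members tested and the shares over all genes under these filters are not given. With only the lines compared, GKO against naïve gave 17 (12 higher, 5 lower), without a share over all genes from the same fit. The cause was not tested. With either primed library left out, the 9 members at 1 TPM only in primed no longer passed the filter. The counts for primed against naïve and for GKO against primed then covered fewer members and fell. The other alternatives (pseudocount 0.1, quantile and median-ratio scaling, no intensity trend) kept each count within 1.5 times.

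The replicate numbers did not pair the samples, since the correlations of deviations between same-numbered libraries ran from -0.128 to 0.078 and were negative in 7 of 10 pairs of lines. A fit with the replicate number as a block moved no count by over 1.5 times, and 4 calls were lost in it, those of Col5a2 in GKO and DKO and of the Itgav and Col1a1 background differences (limma adjusted p = 0.0555 and 0.0504). Depth is unknown, and 2 libraries a line limit every comparison.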
